A study of Mus musculus with 479 samples.

Results

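The Fat and Dachsous genes encode giant cadherins, cell surface proteins with long chains of cadherin repeats, and Fjx1 encodes a kinase that acts on those repeats. The genes described here were chosen by name as Fat1, Fat2, Fat3, Fat4, Dchs1, Dchs2 and Fjx1. Of these 7 genes, 6 had a row among the 24475 gene identifiers of the deposited tables, and Dchs2 was not analysed here. On the mouse reference annotation (GRCm38.p6), Dchs1 (gene 233651) lies on chromosome 7 from 105752989 to 105788355, Fat4 (gene 329628) on chromosome 3 from 38884667 to 39011992, and Fjx1 (gene 14221) on chromosome 2 from 102449366 to 102451792. Fat1 (gene 14107) lies on chromosome 8 from 44933100 to 45052257, Fat2 (gene 245827) on chromosome 11 from 55250609 to 55337505, and Fat3 (gene 270120) on chromosome 9 from 15910189 to 16502681.

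Dchs1 on the surface of a cell binds Fat4 on its neighbour, and the pair acts as ligand and receptor in a system that orients cells within the plane of a tissue, known as planar cell polarity. Fjx1 sits in the Golgi apparatus, where it adds phosphate to cadherin repeats of both partners and so tunes how strongly they bind. In the developing kidney the pair passes signals between stromal and epithelial cells, and loss of Fat4 in mice is known to give cystic tubules. Fat1, Fat2 and Fat3 are relatives of Fat4 that act at cell junctions, at the edge of migrating cells and in the shaping of neurons.

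The libraries were made from poly(A) RNA of 4 organs (heart, kidney, liver and lung) in mice of a Dchs1 line and of a Fat4 line. Both lines were on the C57BL/6NTac background and were made with Regeneron's VelociGene method, and the compared groups were heterozygotes (Het) and wild-type littermates (WT). Each combination of line, tissue and genotype held 30 libraries, except Dchs1 Het liver with 29, which gave 479 libraries in 16 groups. The series title names group size in such experiments as the study's question. The labels give no sex, age or litter and do not say which bases of each gene were altered. Nor do they say whether each library is a mouse of its own, so that all p-values refer to the spread over libraries, part of which may be technical. In bulk tissue, fewer cells of a type and less RNA per cell cannot be told apart.

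A library held between 10720364 and 32282525 reads assigned to genes (median 18978025). Markers of each labelled tissue were high in that tissue, although some hearts also held lung markers, up to a summed 904 TPM beside a median of 0.418 in the same group (TPM are transcript levels scaled to transcript length and to the library total). The numbers that label the libraries are not continuous in 7 of 8 comparisons. In Dchs1 lung the libraries outside the longest stretch, 6 WT and 6 Het, stood apart for Fat1 in both genotypes, while the ranges of the other members overlapped. Their Fat1 levels were 47.0 to 63.9 CPM (reads of a gene per 1000000 reads of its library) in WT and 34.8 to 79.7 in Het, whereas the longest stretch held 67.0 to 156 CPM in 24 WT and 86.5 to 144 CPM in 24 Het libraries. Results for the members in Dchs1 lung are therefore given with and without them. Over all comparisons 22 libraries were outlying in their correlation with the rest, 9 of them in Dchs1 lung.

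The wild types showed at which level each organ expressed these genes. Per transcript length, Fat1 had the highest median of the members in all 4 tissues, and lung was the tissue in which all 6 were at their highest median TPM, an order that for Dchs1 and Fat4 (against heart), Fjx1 (against kidney) and Fat1 (against liver) turned under the edgeR scaling. Fat1 had a median of 13.3 TPM in lung (lowest 4.44, highest 21.9 over the 60 WT libraries of both lines), 5.06 in liver, 4.52 in kidney and 2.73 in heart. Liver was an almost single-gene tissue in this family: Fat1 made up 87.1% ± 1.98 (SD, n = 30) of the summed TPM of the members in the Dchs1 line, and 88.3% ± 1.89 (SD, n = 30) of it in the other line. In the other 3 tissues the mean share of Fat1 lay between 43.7% and 51.0%.

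Dchs1, the ligand, had a median of 3.16 TPM in lung, 1.83 in heart, 1.58 in kidney and 0.425 in liver. Fat4, its receptor, followed the same order, with 3.23 TPM in lung, 1.42 in heart, 0.817 in kidney and 0.227 in liver. Neighbours in these orders overlapped between libraries, and for Dchs1 the heart (1.27 to 2.40 TPM) and kidney (0.763 to 2.45 TPM) ranges were nearly the same. Within a library Dchs1 was above Fat4 in 28 of 30 hearts of either line and in all 60 kidneys. In lung the lines differed, with Dchs1 above Fat4 in 11 of 30 Dchs1-line WT libraries and in 30 of 30 Fat4-line ones.

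Fjx1 was a kidney and lung gene. Its median was 4.64 TPM in lung (2.32 to 8.92) and 2.96 in kidney (1.58 to 4.36), against 0.211 in heart (0.0294 to 0.415) and 0.0321 in liver, where 26 of 60 WT libraries had no count. Its kidney and lung ranges overlapped, and both lay wholly above those of heart and liver. Fjx1 exceeded its substrate Fat4 in every WT kidney, and in 25 of 30 lungs of the Dchs1 line and all 30 of the Fat4 line.

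Fat2 and Fat3 were lung genes at low levels. Fat3 had a median of 0.828 TPM in lung (0.273 to 1.51) against 0.0246 in heart and 0.00876 in kidney, and Fat2 had 0.489 TPM in lung (0.119 to 0.775) against 0.0327 in kidney. No WT library of another tissue reached the lowest lung value of either gene. In liver 55 of 60 WT libraries had no count of Fat2 and 47 had none of Fat3, which allows up to 3 counts per library. These lung levels were Fat3 above Fat2 in 28 of 30 Dchs1-line and 30 of 30 Fat4-line libraries, while in kidney Fat2 was the higher in 24 and 29 of 30.

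**Figure D1:**
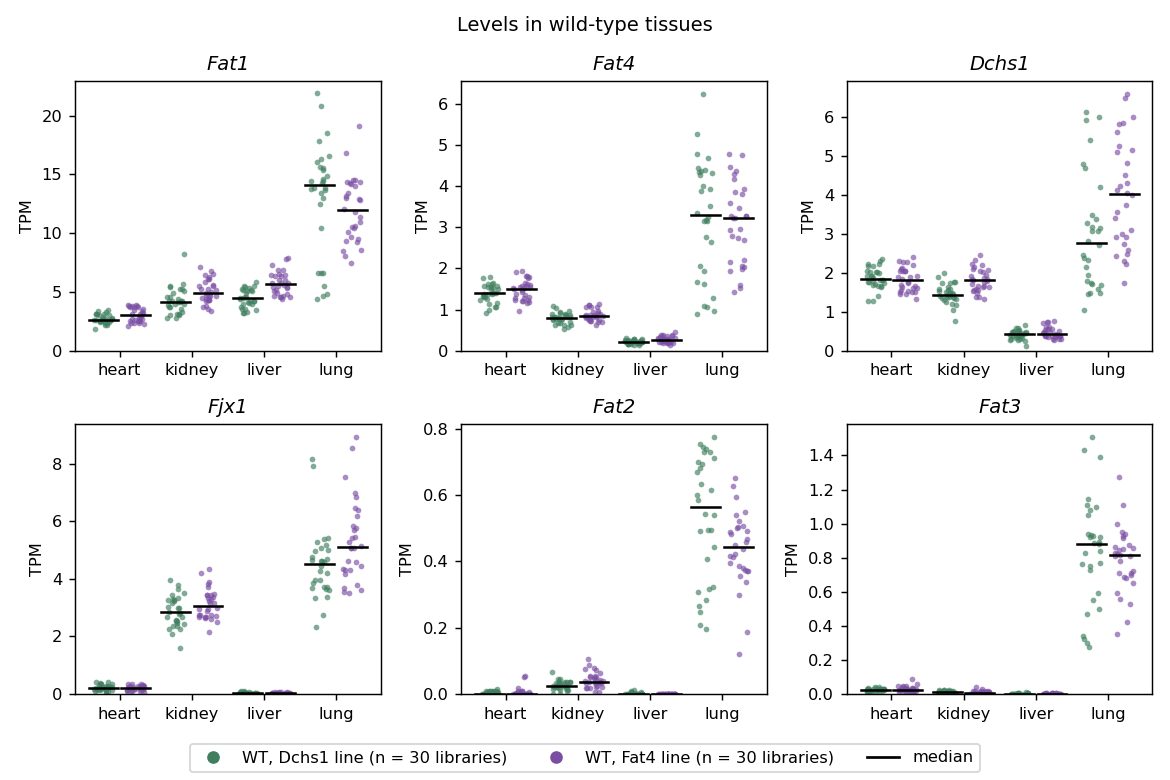
TPM of the 6 measured members (panels) in the wild-type libraries of heart, kidney, liver and lung, with one point per library, 30 per line and tissue, and bars at the medians. Fat1 is present in every tissue, whereas Fat2 and Fat3 lie clearly above 0 only in lung and Fjx1 only in kidney and lung.

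Where lung stood against heart depended on the scale. The median gene was itself higher in lung than in heart on the log2 TPM scale, by 1.51 (Dchs1 line) and 1.56 (Fat4 line). Against the edgeR scaling, which sets the median gene near 0, Dchs1 was lower in lung than in heart, with log2 differences of -0.91 ± 0.0819 (SE) and -0.48 ± 0.0706 in the Dchs1 and Fat4 lines. Fat4 was likewise lower in lung, by -0.39 ± 0.0874 and -0.55 ± 0.0699, where limma on log2(TPM + 1) gave it as higher, by 0.73 and 0.69. Fjx1 changed order between lung and kidney in the same way, at -0.42 and -0.25 with edgeR and 0.49 and 0.60 with limma. Fat1 in lung against liver turned too, at -0.02 and -0.47 with edgeR and 1.27 and 0.93 with limma, and so did Dchs1 in lung against kidney of the Dchs1 line, at -0.10 and 0.63.

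The following differences kept their direction on both scales. Relative to heart, where it had medians of 7.5 and 7 counts, Fjx1 was higher in kidney by a log2 difference of 3.24 and 3.26 in the 2 lines. Dchs1 was lower in liver than in heart by -2.20 and -2.07, and Fat4 by -2.69 and -2.52. Over the 6 pairwise contrasts of tissues, edgeR called 34 of the 36 differences of members in Dchs1-line WT libraries (beside 89% over all genes) and 35 in those of the other line (beside 91%). Contrasts of Fat2 and Fat3 outside lung and of Fjx1 in liver set a level against one near 0. For Fat1, Fat4 and Dchs1 alone, which passed the filter on low counts in every tissue, 16 and 17 of 18 were called.

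In the Dchs1 line the ligand itself was the first check of the genotypes. In heart WT libraries held 9.50 to 18.4 CPM of Dchs1 (median 14.3) and Het libraries 4.52 to 9.52 (median 6.72). In kidney the range was 6.43 to 15.2 CPM in WT (median 10.8) and 2.61 to 7.53 in Het (median 5.08). Only 1 Het heart and 2 Het kidneys reached the lowest WT library of their tissue. In lung WT spanned 8.11 to 35.0 CPM (median 16.9) and Het 4.22 to 12.9 (median 7.71), and in liver WT spanned 1.01 to 4.26 (median 2.81) and Het 0.515 to 2.01 (median 1.24). There the groups overlapped more: 20 of 30 Het lungs and 8 of 29 Het livers lay below every WT library, while all lay below the WT median.

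Dchs1 fell in each tissue by edgeR's quasi-likelihood test. The log2 fold change was -1.10 ± 0.0553 (SE, 95% interval -1.21 to -0.99) in heart, -1.19 ± 0.0649 (-1.32 to -1.06) in kidney, -1.14 ± 0.101 (-1.34 to -0.94) in liver and -1.24 ± 0.114 (-1.47 to -1.01) in lung. The intervals in kidney and lung lay below a log2 change of -1, a level of 50% of WT. The fall was not shown to differ between tissues by the edgeR interaction test (F = 0.517, adjusted p = 0.734). In lung it was -1.34 in the longest stretch of libraries and -0.70 ± 0.219 (adjusted p = 0.289) in the 6 WT and 6 Het libraries outside it, a comparison added after the data were seen.

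In the Fat4 line the receptor fell by similar amounts. Fat4 in WT kidneys ran from 6.89 to 12.4 CPM (median 9.13) and in Het kidneys from 3.19 to 6.24 (median 4.58), with no overlap between the 30 and 30 libraries. In heart WT held 11.2 to 22.3 CPM (median 17.3) and Het 5.73 to 12.3 (median 8.99), and 29 of 30 Het libraries lay below every WT library. In lung WT held 14.4 to 39.2 CPM (median 28.4) and Het 8.40 to 21.3 (median 13.7), and in liver 1.35 to 4.20 (median 2.59) and 0.649 to 2.09 (median 1.18). Liver and lung overlapped more, with 19 and 17 of 30 Het libraries below every WT library.

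The log2 fold change of Fat4 in edgeR was -0.95 ± 0.0584 (95% interval -1.06 to -0.83) in heart, -1.07 ± 0.0565 (-1.18 to -0.95) in kidney, -1.03 ± 0.0989 (-1.22 to -0.83) in liver and -0.98 ± 0.0861 (-1.15 to -0.81) in lung. All 4 intervals included -1, and the fall was not shown to differ between tissues by the interaction test (F = 0.513, adjusted p = 0.850, edgeR).

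**Figure D2:**
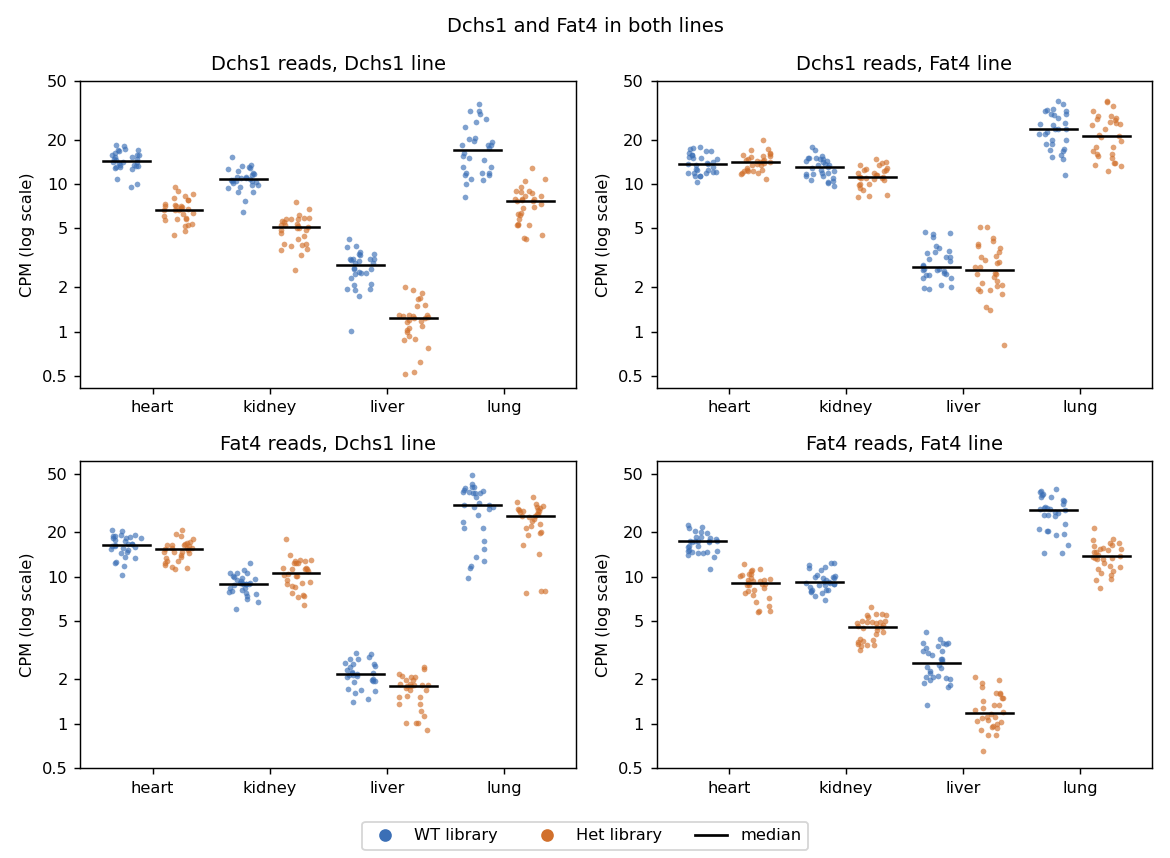
Dchs1 (ligand) and Fat4 (receptor) in CPM on a log axis, in every WT and Het library of both lines and 4 tissues, with one point per library and bars at the medians. Het libraries sit below WT for Dchs1 in the Dchs1 line and for Fat4 in the Fat4 line, without overlap for Fat4 in kidney and with more overlap in liver and lung.

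Counting the targeted gene, 1 of 4 tested members rose and 2 fell in Dchs1 heart by edgeR, beside 26.1% and 24.1% of all genes (50.2% called). Dchs1 kidney had 1 higher and 1 lower of 4, beside 23.4% and 23.8% (47.2% called). Dchs1 liver had 0 higher and 2 lower of 3, beside 24.3% and 25.4% (49.8% called), and Dchs1 lung 0 higher and 3 lower of 6, beside 9.6% and 10.4% (20% called). In Fat4 heart 1 of 3 was lower and 0 higher, beside 0.628% and 0.969% (1.6% called), and in Fat4 kidney 1 of 4 was higher and 2 lower, beside 9.21% and 7.87% (17.1% called). Fat4 liver had 1 lower of 3, beside 3.51% lower and 3.64% higher (7.15% called), and Fat4 lung 1 lower of 6, beside 0.0259% lower and 0.11% higher (0.136% called), the targeted gene in both. Setting the targeted gene aside, 2 of 3, 1 of 3, 1 of 2 and 2 of 5 tested members were called in the Dchs1 line (in the order heart, kidney, liver, lung). In the Fat4 line 2 of 3 were called in kidney and none of 2, 2 and 5 in heart, liver and lung by edgeR. Fat2 and Fat3 passed the filter on low counts only in lung, and Fjx1 did not pass it in either liver or in Fat4 heart.

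In the Dchs1 line the receptor was called lower in liver and higher in kidney, where 49.8% and 47.2% of all genes were called in either direction. In liver of the Dchs1 line Fat4 ran from 1.41 to 3.03 CPM in WT (median 2.171) and from 0.906 to 2.44 in Het (median 1.80), and 26 of 29 Het libraries lay below the WT median. It fell by 0.35 ± 0.0861 on the log2 scale (adjusted p = 0.000587, edgeR). In the same livers 3 of 7 endothelial markers were lower and 1 higher (Kdr -0.20, Cdh5 -0.16, Tie1 -0.18, Pecam1 0.19), beside 25.4% and 24.3% of all genes. Their summed TPM ran from 30.8 to 69.7 in WT (median 55.4) and from 29.4 to 70.5 in Het (median 53.6). Of 5 tested markers of smooth muscle and pericytes 2 were higher, Rgs5 by 0.65 and Tagln by 0.43. The part of these markers in the fall of Fat4 was not tested. In kidney Fat4 rose by 0.19 ± 0.0722 (adjusted p = 0.0246, edgeR), from 5.99 to 12.4 CPM in WT (median 8.95) to 6.42 to 17.9 in Het (median 10.7), with 23 of 30 Het libraries above the WT median. The longest stretch held 23 of the 30 WT and 25 of the 30 Het kidneys. Among WT kidneys Fat4 was at 3.19 to 3.84 on log2(CPM + 1) in that stretch and lower, at 2.86 to 3.30, outside it. In the same kidneys 6 of 8 epithelial markers were higher and 1 lower (summed TPM of 108 to 250 in WT and 180 to 309 in Het), whose part was not tested. With the mean log2 CPM of stromal markers (the stromal score, over 12 markers, or the 10 that passed the filter in liver) as a covariate Fat4 was at -0.35 in liver and 0.21 in kidney, both still called. Both shifts were small beside the spread, since the groups overlapped over most of their range. In heart the log2 difference was -0.10 ± 0.0621 (adjusted p = 0.171, edgeR).

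In lung of the Dchs1 line the result for Fat4 depended on which libraries were compared. WT libraries held 9.73 to 49.0 CPM (median 30.7) and Het 7.77 to 34.6 (median 25.9), and 27 of the 30 Het values were under the median of WT. Over all libraries the log2 difference was -0.26 ± 0.133 (adjusted p = 0.182, edgeR). Within the longest stretch Fat4 fell by 0.30 ± 0.0812 (adjusted p = 0.00353, edgeR), and outside it the difference was 0.07 ± 0.266 (adjusted p = 0.989, edgeR). The change of Fat4 differed between the tissues of the Dchs1 line by the interaction test (F = 6.12, adjusted p = 0.00159, edgeR).

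The ligand, in turn, was lower in Fat4 Het kidneys. Dchs1 ran from 9.66 to 17.8 CPM in WT (median 12.96) and from 8.18 to 14.7 in Het (median 11.2), and 25 of 30 Het libraries lay below the WT median. It fell by 0.20 ± 0.0513 on the log2 scale (adjusted p = 0.00578, edgeR), a call that was lost in limma on log2(TPM + 1), at -0.11 (adjusted p = 0.0518), and with the score of stromal markers as a covariate, at -0.13 (adjusted p = 0.103, edgeR). That score, over fibroblast and mesenchyme markers, had a median of 3.95 in WT and 3.70 in Het kidneys, and 2 of 12 stromal and 5 of 7 endothelial markers were lower there. Summed TPM of the stromal markers ran from 104 to 204 in WT and from 85.6 to 232 in Het, those of the endothelial markers from 218 to 334 and from 203 to 286, and no marker had a median of 0. Since the score itself differed between WT and Het, the fit with it cannot separate it from genotype. The part of these markers in the fall of Dchs1 was not tested. In heart, liver and lung of the Fat4 line the log2 differences of Dchs1 were 0.02, -0.06 and -0.08 (adjusted p of 0.798 to 0.878, edgeR).

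**Figure D3:**
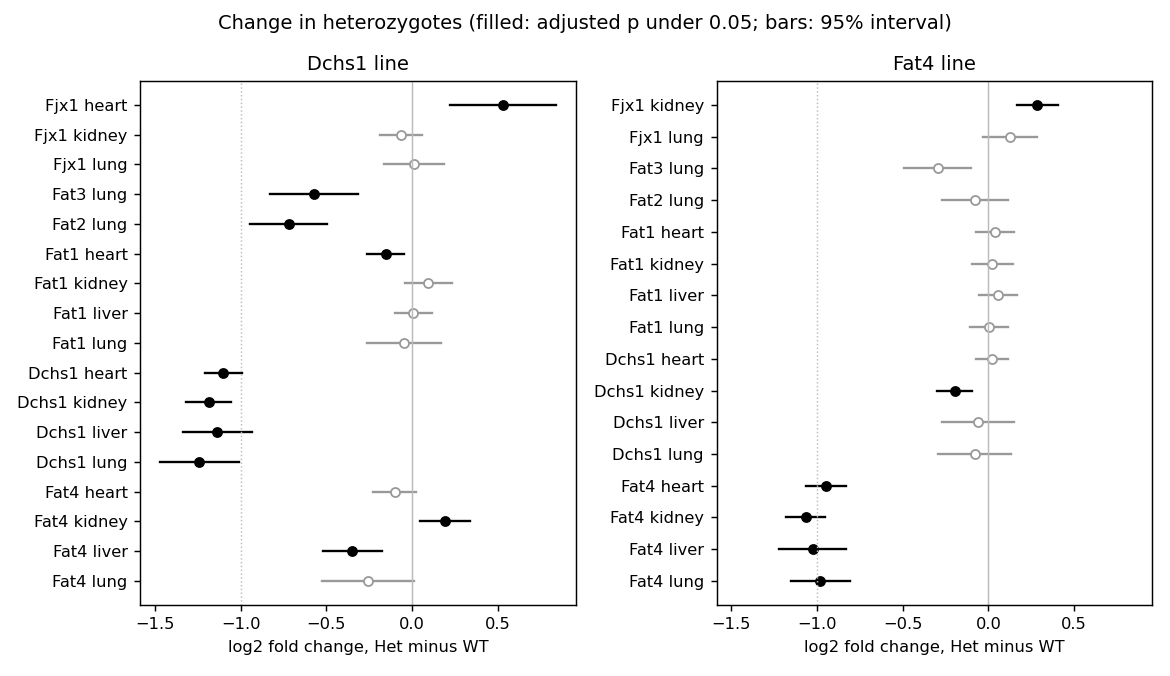
Log2 fold change of Het against WT for each tested member, by tissue and line, with 95% intervals from edgeR's quasi-likelihood fit (30 against 30 libraries, 29 for Dchs1 Het liver) and filled points at an adjusted p under 0.05. The targeted genes lie near -1, and among the others the farthest from 0 are Fat2 (-0.72) and Fat3 (-0.57) in Dchs1 lung and Fjx1 (0.53) in Dchs1 heart.

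Among the relatives of Fat4, Fat2 and Fat3 fell in lung of the Dchs1 line. Fat2, a cadherin of migrating epithelial cells, ran from 1.93 to 6.22 CPM in WT (median 4.83) and from 1.21 to 4.80 in Het (median 2.34). All 30 Het lungs lay below the WT median and 8 below every WT library. Fat2 fell by 0.72 ± 0.111 on the log2 scale (95% interval -0.94 to -0.50, adjusted p = 1.53e-06, edgeR). Fat3 ran from 3.77 to 14.5 CPM in WT (median 9.24) and from 1.78 to 9.32 in Het (median 5.89), with 28 of 30 Het lungs below the WT median. It fell by 0.57 ± 0.129 (-0.83 to -0.32, adjusted p = 0.000591, edgeR).

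Both falls were as large within the longest stretch of libraries, at -0.77 ± 0.107 for Fat2 and -0.56 ± 0.0947 for Fat3 (adjusted p = 3.6e-07 and 1.18e-05, edgeR). Outside it they were -0.44 ± 0.197 and -0.75 ± 0.206 (adjusted p = 0.599 and 0.202, edgeR), where 6 genes were called in all. Of 12 stromal markers 6 were lower in Dchs1 Het lung and 0 higher. Among the lower were Col6a3 (-1.20), Lum (-0.93) and Col3a1 (-0.80), 3 genes of the extracellular matrix. The markers not called were Pdgfra (0.24), Dcn (0.07), Pi16 (0.04), Dpt (0.04), Pdgfrb (-0.08) and Mfap5 (-0.18). The summed TPM of all 12 ran from 787 to 1456 in WT (median 1178) and from 722 to 1199 in Het (median 1027), and the median stromal score was 6.71 and 6.37. With this score as a covariate Fat2 was at -0.32 (adjusted p = 0.201) and Fat3 at -0.18 (adjusted p = 0.786), so that neither call was kept in edgeR. Since the score itself differed between WT and Het, that fit cannot separate it from genotype. Far fewer of all genes were called in that fit too, as given with the processing below. Of 7 endothelial markers 2 were lower and 0 higher in these lungs, Emcn by -0.67 and Tie1 by -0.26 (summed TPM of 993 to 2464 in WT and 1005 to 2170 in Het), and their part was not tested.

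In lung of the Fat4 line neither gene passed the test. Fat3 had a log2 difference of -0.30 ± 0.0979 (95% interval -0.49 to -0.10), with an unadjusted p of 0.00357 and an adjusted p of 0.194 in edgeR, and 23 of 30 Het libraries were below the WT median. Fat2 had -0.08 ± 0.0970 (adjusted p = 0.857, edgeR). The change of Fat2 differed between the lines, by 0.65 ± 0.150 (Fat4 line minus Dchs1 line, adjusted p = 0.00363, edgeR), while that of Fat3 was not shown to differ, at 0.28 ± 0.164 (adjusted p = 0.411, edgeR).

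Outside lung Fat3 was near the limit of detection. Dchs1-line hearts held a median of 6 counts in WT and 3 in Het, and kidneys 2 and 1, below the filter on low counts. When no filter was applied, Fat3 fell by 0.72 ± 0.208 in heart (adjusted p = 0.00430, edgeR) and by 1.10 ± 0.295 in kidney (adjusted p = 0.00206, edgeR), and in each tissue 27 of the 30 Het values were under the median of WT. In heart and kidney of the Fat4 line the unfiltered differences were -0.32 and -0.25 (adjusted p = 0.549 and 0.714, edgeR). Calls of the unfiltered fit can rest on a few reads. It called Fat2 lower in Dchs1 liver too (-1.51, adjusted p = 0.00931, edgeR), where 25 of 30 WT and 29 of 29 Het libraries had no count.

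Fat1, the most abundant member, moved little. In Dchs1 hearts it ran from 19.4 to 36.8 CPM in WT (median 27.9) and from 17.1 to 33.3 in Het (median 26.1), and 20 of the 30 Het values were under the median of WT. It fell by 0.15 ± 0.0536 (adjusted p = 0.0137, edgeR). This was not kept with the stromal score as a covariate, at -0.11 (adjusted p = 0.180, edgeR). In Dchs1 Het hearts 7 of 12 stromal markers were lower, with Col6a3 at -1.11, and 2 were higher, Mfap5 (0.24) and Dcn (0.11). Pdgfra, Pdgfrb and Pi16 were not called. The median score was 5.75 in WT and 5.35 in Het, so that the fit with it cannot separate it from genotype. The summed TPM of these markers ran from 591 to 998 in WT (median 780) and from 469 to 1056 in Het (median 779). In the 7 other comparisons the log2 difference of Fat1 lay between -0.05 and 0.09, with adjusted p from 0.259 to 0.996 (edgeR). In Dchs1 lung it was -0.05 over all libraries and -0.06 in the longest stretch.

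Fjx1, the kinase, rose in kidney of the Fat4 line. It ran from 3.60 to 6.77 CPM in WT (median 5.18) and from 3.72 to 8.37 in Het (median 6.10), and 26 of 30 Het libraries lay above the WT median. The log2 fold change was 0.28 ± 0.0592 (95% interval 0.17 to 0.40, adjusted p = 0.000720, edgeR), 0.33 in the longest stretch and 0.24 with the stromal score as a covariate (adjusted p = 0.0126, edgeR). That score differed between WT and Het in these kidneys, as given with Dchs1, so that the last fit cannot separate it from genotype. In kidney of the Dchs1 line the difference was -0.06 ± 0.0604 (adjusted p = 0.395, edgeR), and the changes of the 2 lines differed by 0.34 ± 0.0850 (adjusted p = 0.000807, edgeR).

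In heart it was the Dchs1 line in which Fjx1 rose. Levels were low, from 0.0519 to 0.734 CPM in WT (median 0.374) and from 0.179 to 1.47 in Het (median 0.548), or medians of 7.5 and 11 counts. The filter asks for about 10 counts, which the median reached in Het but not in WT. Fjx1 was thus open to this test mainly through the group where it was higher, so that the call is no independent support. The rise was 0.53 ± 0.156 on the log2 scale (adjusted p = 0.00345, edgeR), with 22 of 30 Het libraries above the WT median and overlap over most of the range. With the stromal score as a covariate it was 0.88 (adjusted p = 5.87e-05, edgeR). The score differed between these WT and Het hearts, as given with Fat1, so that the fit cannot separate it from genotype. Fjx1 was too low in these hearts to be tested by limma or within the longest stretch. In Fat4 hearts Fjx1 did not pass the filter, at medians of 7 and 6 counts, and in a fit over both lines, in which Fjx1 passed the filter, the changes differed by -0.70 ± 0.242 (Fat4 line minus Dchs1 line, adjusted p = 0.0230, edgeR). That difference, too, rests on these low counts. In lung the log2 differences were 0.01 ± 0.0876 (Dchs1 line) and 0.13 ± 0.0785 (Fat4 line) (adjusted p = 0.971 and 0.609, edgeR), with 0.04 in the longest stretch of the Dchs1 line.

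**Figure D4:**
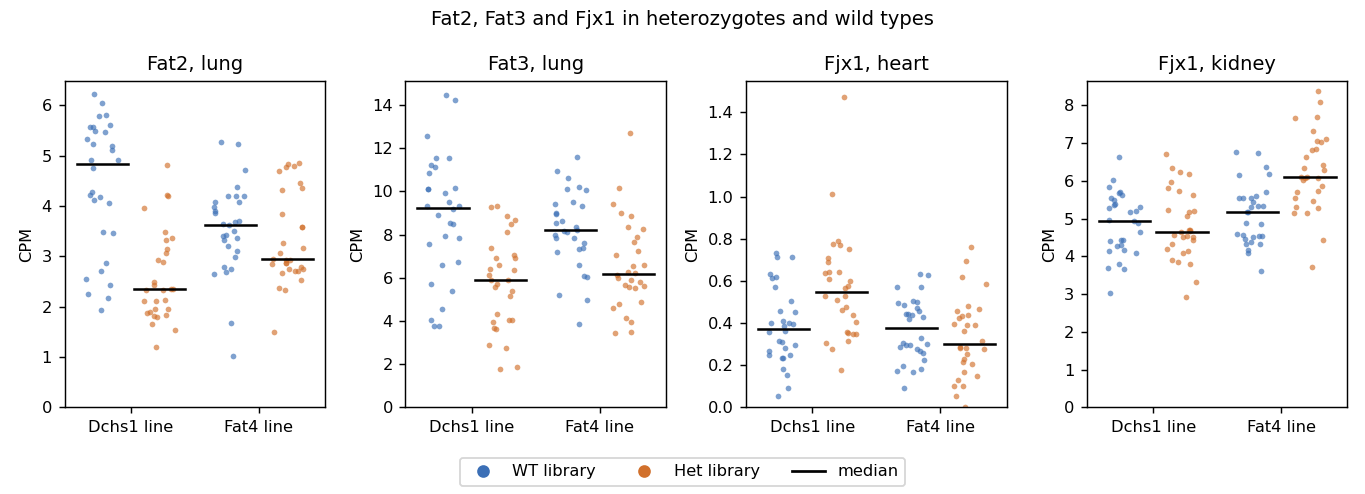
CPM of Fat2 and Fat3 in lung and of Fjx1 in heart and kidney, in every WT and Het library of both lines, with one point per library and bars at the medians. Fat2 and Fat3 are lower in Het lungs of the Dchs1 line, and Fjx1 is higher in Het kidneys of the Fat4 line and in Het hearts of the Dchs1 line.

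Whether a change depended on the tissue was tested within each line. Of Fat1, Fat4 and Dchs1, the members measured well in every tissue, Fat4 alone differed between tissues in the Dchs1 line by edgeR, as given above, beside 52.2% of all genes. Fjx1, at about 1 count in liver, was tested over heart, kidney and lung, an analysis added after the data were seen, and its change differed between them (F = 7.66, adjusted p = 0.00334, edgeR, beside 34.7% of all genes). Its heart counts in that fit were low, as given above. Fat2 and Fat3 were in both of these fits of the Dchs1 line, although they passed the filter on low counts only in lung. Fat2 was called over the 4 tissues (adjusted p = 0.0024, edgeR interaction test) and over heart, kidney and lung (adjusted p = 0.0224). Fat3 was called in neither (adjusted p = 0.354 and 0.332). With so few counts outside lung, these values cannot decide whether the change of either gene depended on the tissue. In the Fat4 line none of Fat1, Fat4 and Dchs1 passed, with unadjusted p of 0.265 or more in edgeR, beside 7.13% of all genes. Between the lines the changes of 4 of 4 members differed in heart (beside 25.5% of all genes). In kidney 3 of 4 did (33.5%), in liver 2 of 3 (23.6%) and in lung 3 of 6 (5%), and Dchs1 and Fat4, each targeted in 1 of the lines, were among them in every tissue. Of the members targeted in neither line, Fat1 differed in heart (0.20 ± 0.0782, adjusted p = 0.0494, edgeR), which was lost with another scaling at an adjusted p of 0.0507.

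Ligand and receptor varied together among the wild types of the Fat4 line. Across 30 WT libraries Pearson's r between Dchs1 and Fat4 on the log2(CPM + 1) scale was 0.913 in lung (rho = 0.938, permutation p = 1e-05, adjusted 0.00018), 0.683 in heart (rho = 0.715, permutation p = 7e-05, adjusted 0.000252) and 0.682 in kidney (rho = 0.651, permutation p = 7e-05, adjusted 0.000252). Without the 2 libraries farthest from the median r stayed at 0.897, 0.634 and 0.573. In liver it was 0.294 (rho = 0.252, permutation p = 0.114, adjusted 0.211). These are 4 of 18 relations tested, and the libraries compared share a tissue and a line, within which their mix of cells was not measured.

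In the Dchs1 line r was lower than these values in lung, heart and kidney. In lung the WT libraries outside the longest stretch had lower medians of Dchs1 (11.2 against 18.5 CPM) and Fat4 (12.3 against 35.9 CPM), with overlapping ranges. There r within the longest stretch was 0.656 over 24 libraries (rho = 0.580, permutation p = 0.00053, adjusted 0.00265), and 0.741 over all 30. In liver r was 0.434 over 30 libraries (rho = 0.513, permutation p = 0.0168, adjusted 0.0431), and 0.313 in the longest stretch (adjusted 0.273). In heart it was 0.366 (rho = 0.318, permutation p = 0.0482, adjusted 0.108), and 0.538 in the longest stretch (adjusted 0.0304), where it rested on 2 libraries, without which r was 0.278. In kidney it was -0.158 (rho = -0.0932, permutation p = 0.404, adjusted 0.519), and 0.251 in the longest stretch (adjusted 0.373). Whether the lines differ in this relation was not tested.

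Fjx1 followed its substrates in lung of the Fat4 line, with r of 0.668 with Dchs1 (rho = 0.665, permutation p = 7e-05, adjusted 0.000252) and 0.645 with Fat4 (rho = 0.667, permutation p = 0.0002, adjusted 0.0006). In lung of the Dchs1 line r within the longest stretch was 0.487 with Dchs1 (rho = 0.433, permutation p = 0.0150, adjusted 0.0449) and 0.396 with Fat4 (rho = 0.346, permutation p = 0.0568, adjusted 0.122). Over all 30 libraries, with those outside the longest stretch, r was 0.0315 (adjusted 0.920) and -0.255 (adjusted 0.286), and the first was 0.501 (adjusted 0.00870) on log2(TPM + 1). In kidney Fjx1 gave r of 0.184 and -0.101 with Dchs1 and -0.293 and -0.115 with Fat4 in the Dchs1 and Fat4 lines (adjusted p of 0.211 to 0.672, permutation test). On log2(TPM + 1) the relation of Fjx1 with Dchs1 in Dchs1-line kidney was larger, at 0.559 (adjusted permutation p = 0.00349).

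**Figure D5:**
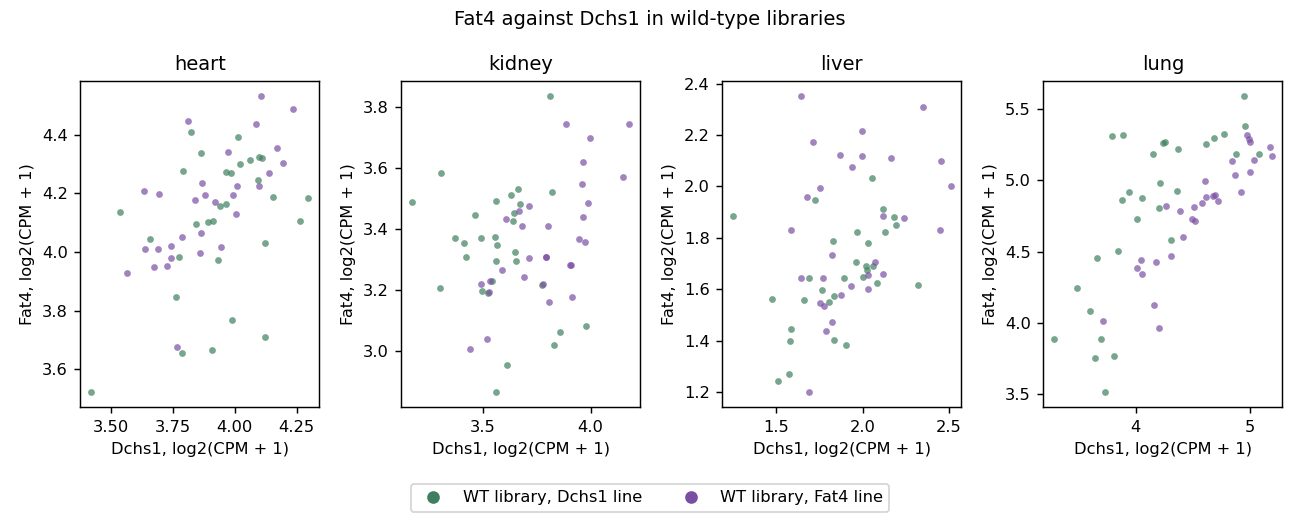
Fat4 against Dchs1 in wild-type libraries, both as log2(CPM + 1) with CPM scaled as for the correlations, with one panel per tissue and one point per library, coloured by line. The points of the Fat4 line follow a rising line in lung, heart and kidney, and those of the Dchs1 line scatter more, most of all in kidney. In that kidney group the libraries outside the longest stretch lie mostly lower for Fat4.

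The genes most like each member across WT libraries were listed as a description, from the mean correlation over tissues with 60 libraries each, centred on line. Dchs1 was most like Plxnd1, a semaphorin receptor of endothelium (mean r = 0.687 over 4 tissues), Lama4, a laminin of vessel walls (0.614), and Stab1, a scavenger receptor of sinusoidal endothelium (0.613). Fat4 was most like Peak1 (0.707) and the endothelial receptors Ptprb (0.682) and Kdr (0.680). Fat4 ranked at 46 of 11308 genes for Dchs1, and Dchs1 at 447 for Fat4, with a mean r of 0.476. Fat1 ranked at 95 for Fat4 (0.549). Fat1 was most like Cltc, the clathrin heavy chain (0.826), Akap11 (0.823) and Nrip1 (0.818).

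In lung alone, Fat2 was most like the collagens Col4a6 (0.737) and Col14a1 (0.732) and the cannabinoid receptor Cnr1 (0.735), and Fat3 like Uggt2 (0.816), Igsf10 (0.816) and Pla2r1 (0.811). Fjx1, over kidney and lung, had Rbm38 (0.553), 2310022B05Rik (0.496) and Tfe3 (0.489) at the top. Its substrates ranked far lower, Dchs1 at 2337 (0.154) and Fat4 at 9164 (-0.0767) of 13326 genes. In lung their r with Fjx1 over both lines was 0.28 and 0.0484. Libraries of the Dchs1-line lung that stand apart are part of these correlations, which carry no test.

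Genes near the altered loci were counted separately. Within 1000000 bases of the start of Dchs1, 8 of 18 tested genes were called in Dchs1 heart (44.4%, against 50.2% of all genes) and 10 of 19 in Dchs1 kidney (52.6%, against 47.2%). Liver had 8 calls of 20 (40.0%, against 49.8%) and lung 6 of 21 (28.6%, against 20%), or 9 of 21 in the longest stretch (42.9%, against 30.7%). Lower neighbours outnumbered higher ones, by 7 to 1, 8 to 2, 7 to 1 and 5 to 1 in heart, kidney, liver and lung. Of all genes 24.1%, 23.8%, 25.4% and 10.4% were called lower there, and 26.1%, 23.4%, 24.3% and 9.6% higher. Those with the smallest p in heart were Tpp1, a lysosomal peptidase gene that starts 8.18 kb from Dchs1 (-0.14), Apbb1 (-0.28) and Smpd1 (-0.25). In kidney Rrp8 was higher (0.17) and Gm1966 (-0.40) and Gm4070 (-0.36) lower. In liver Fam160a2 (-0.30), Gm4070 (-0.98) and Gvin1 (-0.96) were lower, and in lung Gm18852 (-0.84), Gm4070 (-0.71) and Gvin1 (-0.70). Gm4070, Gm1966, Gm18852 and Gvin1 belong to a family of near-identical interferon-inducible GTPase genes, between which reads cannot be divided with certainty. Gm4070 and Gvin1 were called lower in every tissue, Gm18852 in heart, liver and lung, and Gm1966 in kidney, liver and lung. These lower neighbours are therefore not separate counts. Near Fat4 only Ankrd50 was tested in every tissue of the Fat4 line, with log2 differences of -0.12 to 0.01 and no call in edgeR (unadjusted p of 0.0206 in heart and 0.131 or more in the other tissues), and 0 neighbours were called there by DESeq2 or limma.

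The wider pathway was followed through 5 lists: core planar cell polarity, the Hippo core, partners and effectors of Fat and Dachsous proteins, other cadherins, and secretory-pathway kinases related to Fjx1. Their counts are read beside the share of all genes called in the same comparison. In Dchs1 heart, where 26.1% of all genes were called higher and 24.1% lower, 3 of 13 planar polarity genes fell, among them Celsr1, an atypical cadherin (-0.31), and Ankrd6 (-0.28), and 1 rose, Dvl2 (0.16). Among 15 Hippo genes 3 rose and 2 fell, with Tead3 at 0.13, Frmd6 at -0.27 and Nf2, an upstream activator of the pathway, at -0.21. Partners and effectors rose 7 to 3 among 16, with Rere (0.38) and Csnk1e (0.30) higher and the scaffold Homer1 (-0.43) lower. The cadherins Cdh2 (-0.53) and Cdh4 (-0.57) fell and Cdh5 (0.13) rose among 7 tested, and the kinases Gask1a (-0.68), Gask1b (-0.32) and Fam20b (-0.16) fell among 6. The medians of the 5 lists lay between -0.15 and -8.66e-05, against 0.00411 for all genes.

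In Dchs1 kidney, where 23.4% of all genes were called higher and 23.8% lower, 6 of 13 planar polarity genes rose, among them the receptor Fzd3 (0.33), Prickle1 (0.29) and Dvl3 (0.22), and 1 fell. The median of that list was 0.0974 against 0.00523 for all genes. The Hippo list had 3 of 16 higher and 1 lower, with Wwc1 at 0.38, Frmd6 at 0.13 and Nf2 at -0.11. Partners split 3 to 3 of 16, with Enah (0.21), Scrib (0.15) and Homer1 (-0.27). Cdh1 (0.22) and Cdh2 (0.27) rose and Cdh16 (-0.16) fell among 9 cadherins, of which 3 rose and 1 fell, and the kinases Pkdcc (0.26) and Fam20a (0.23) rose among 5. Markers of epithelium, a list that holds Cdh1 too, moved in the same kidneys, as given with Fat4, and their part in these changes was not tested.

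In Dchs1 liver, where 24.3% of all genes were called higher and 25.4% lower, Wwc1, a Hippo activator, fell by 0.68 and the transcription factor Tead1 rose by 0.88, within a Hippo list of 15 with 2 higher and 2 lower. Planar polarity had 1 higher and 3 lower of 9, with Prickle3 (-0.31), Prickle1 (-0.30) and Vangl1 (0.22). The receptor phosphatase Ptprf fell by 0.76 among 16 partners with 3 higher and 3 lower, beside Dlg1 (0.25) and Csnk1e (0.22). Cdh1 (0.70) and Cdh4 (0.46) rose and Cdh2 (-0.26) fell among 6 cadherins with 2 higher and 3 lower, and Gask1a fell by 1.32, the only call among 5 kinases. Markers of epithelium, which include Cdh1, had 2 of 5 tested higher in the same livers (summed TPM of all 8 from 198 to 367 in WT and 235 to 563 in Het), and their part was not tested.

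In Dchs1 lung, where 9.6% of all genes were called higher and 10.4% lower, 5 of 9 cadherins fell and 0 rose, with Cdh2 at -0.64, Cdh16 at -0.40 and Cdh4 at -0.37, and the median of the list was -0.189 against 0.00895 for all genes. Prickle1 (-0.54) and Vangl1 (-0.18) fell among 14 planar polarity genes. Only Tead3 (0.15) changed among 16 Hippo genes, and Fam20c (0.19) among 6 kinases. Partners split 2 to 2 of 16, with Enah (0.18) higher and Evl (-0.29) and Homer3 (-0.28) lower. In the longest stretch (30.7% of all genes called) 5 of 9 cadherins and 3 of 14 planar polarity genes fell and none rose. Of the other lists, 1 Hippo gene rose and 1 fell, 2 partners rose and 4 fell, and 2 kinases rose and 2 fell. Part of the stromal and endothelial markers given above for these lungs fell as the cadherins did. In the longest stretch 6 of 12 stromal markers fell and 1 rose, and 3 of 7 endothelial markers fell and 0 rose. Of 8 epithelial markers 4 rose and 0 fell there, where over all libraries 1 rose and 0 fell. The part of these markers was not tested.

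In kidney of the Fat4 line 8 of 59 genes over the 5 lists were called, beside 17.1% of all genes, with Sav1 (0.12) and Dvl1 (0.08) higher and Tead2 (-0.33), Gask1b (-0.21), Amotl1 (-0.20), Evl (-0.19), Lix1l (-0.17) and Cdh5 (-0.11) lower. Amotl1 encodes a junctional protein known to bind Fat4. In liver Cdh1 rose by 0.33 and Ptprf (-0.21) and Wwc1 (-0.18) fell, 3 calls among 51 genes, beside 7.15% of all genes. In heart Ankrd6 (-0.23) was the only call among 56, beside 1.6% of all genes (6 with an unadjusted p under 0.05 in edgeR, 0 called in DESeq2 or limma). In lung, where 0.136% of all genes were called, 0 of 61 genes were called by edgeR, DESeq2 or limma, and 3 had an unadjusted p under 0.05 in edgeR.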

How the data were processed

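The members and the gene lists were chosen with earlier results of these data known, and no list is independent evidence. Per the labels' protocols, poly(A) RNA was made into strand-specific libraries and read single-end, with read lengths that conflict. Tools listed by the submitters' processing notes are FastQC and bcl2fastq 2.17, and the build is GRCm38. Aligner and counting program: not given in the sources used here. Each line has, as deposited by the authors, estimated counts per gene (19 of 2874 member values were not whole) and the same libraries as TPM, scaled to transcript length and library total. Of 24475 identifiers, 24375 matched a RefSeq symbol of GRCm38.p6. Near-identical genes can be counted wrongly by such estimates.

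Groups came from the labels. Within groups 0 pairs of libraries were identical (the most alike pair had a chi-square of 3.48 per gene at a mean of 20 counts or more). A library of 10720364 reads holds 10 reads of a gene at 1 CPM. Rounded counts went into edgeR 4.0.16 under R 4.3.3 (TMM, filterByExpr with a minimum of 10 counts and a total of 15, quasi-likelihood F test), Benjamini-Hochberg over all genes tested, threshold 0.05. CPM in the text are counts over the library total. Standard errors are the log2 fold change, without its sign, divided by the root of F. Interactions were fitted over the tissues of a line or the lines of a tissue. Correlations across WT libraries used log2(CPM + 1) and 100000 two-sided permutations, adjusted over 18 relations where both genes passed the filter, or 15 within the longest stretch. Genes named were all members and, of each list or neighbourhood, up to 3 called genes with the smallest p, and 3 genes by likeness. Of 8 names in the kinase list, 6 matched, since the list holds older names of 2 genes.

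Alternatives were DESeq2 1.42.0, its size-factor method (RLE) in edgeR, no filter, limma 3.58.1 on log2(TPM + 1) and log2(TPM + 0.1) for genes reaching 1 TPM in 20 libraries, the number stretch as a covariate, the longest stretch alone, fits without outlying libraries (5 median absolute deviations) and a stromal score as a covariate. The fit of Dchs1 lung libraries outside the longest stretch and the interaction over heart, kidney and lung of the Dchs1 line were added after the data were seen. Scripts were tested on simulated counts with known changes.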

Additional observations from a re-analysis of the deposited data

Results flagged for a closer look

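In the Dchs1 line the Het change differed between the 4 tissues for Fat4 (F = 6.12), and between heart, kidney and lung for Fjx1 (F = 7.66), by the tissue-by-genotype interaction in edgeR. Between the lines, the log2 Het change of the Fat4 line minus that of the Dchs1 line differed for both targeted genes in each tissue. For Dchs1 this difference was 1.13 in heart, 0.98 in kidney, 1.06 in liver and 1.17 in lung, and for Fat4 it was -0.84, -1.27, -0.69 and -0.71. Of the genes targeted in neither line, Fat1 differed in heart (0.20), Fat2 in lung (0.65) and Fjx1 in heart (-0.70) and kidney (0.34). The groups are too large for a test of single outlying values.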

How the results depend on the processing

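TPM fits tested fewer members, since Fat2 and Fat3 in lung, Fat4 in kidney and liver and Dchs1 in liver seldom reached 1 TPM. No paired analysis was possible because library numbers are unique and replicate numbers only follow accession order. Number stretches are no stated batch, were absent as a covariate in Fat4 liver and lung and as a subset in Fat4 lung, and no library was outlying in Dchs1 heart or Fat4 kidney, so those fits were not run. Median counts near or under 10, as for Fat3 outside lung and Fjx1 in heart and liver, limit which changes were detectable there.

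The falls of the targeted genes kept direction and call in every fit that tested them except Dchs1 in the 12 lung libraries outside the longest stretch (-0.70, not called). Members called in both limma fits were 1 in Dchs1 kidney (2 in the report), 0 in Dchs1 liver (2), 1 in Dchs1 lung (3), 1 in Fat4 kidney (3) and 0 in Fat4 liver (1), and tissue differences in the Fat4 line were 23 (35). In Dchs1 lung 1 member was called with the stromal score and 0 outside the longest stretch, where 3 of 6 had an unadjusted p under 0.05 in edgeR. All genes called there were 4711 (stretch covariate), 4623 (longest stretch), 6 (outside it) and 257 (stromal score) against 3018. In Fat4 heart they were 95 (no filter), 328 (DESeq2), 132 and 131 (limma), 117 (longest stretch), 67 (without outlying libraries) and 11 (stromal score) against 211. In Fat4 kidney they were 1453 and 1451 (limma) and 622 (stromal score) against 2393, in Fat4 liver 1429 (without outlying libraries) against 892, and in Fat4 lung 61 (DESeq2), 10 and 10 (limma) and 9 (without outlying libraries) against 21. Where no value shows it, the cause was not tested.

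Signs that turned belonged to differences near 0, or to lung against other tissues. In limma they were Fjx1 in Dchs1 kidney (0.0128 and 0.0171) and Dchs1 lung (-0.0308 and -0.0359), and Fat1 in Dchs1 liver (-0.00495 and -0.00625), Fat4 liver (-0.000385 and -0.00304) and Fat4 lung (-0.0232 and -0.0247). Fat1 also turned in Dchs1 liver (-0.00476 with the stretch covariate, -0.0473 in the longest stretch), Fat4 kidney (-0.0129, longest stretch) and Dchs1 lung (0.0229, outside it), Fjx1 in Dchs1 lung (-0.000139 without a filter, -0.122 outside the longest stretch, -0.108 with the stromal score), and Fat4 in Dchs1 lung (0.0699, outside it). In WT, limma turned lung against heart for Fat4 (0.73 and 0.69) and Dchs1 (0.41 and 0.78), lung against kidney for Dchs1 (0.63, Dchs1 line) and Fjx1 (0.49 and 0.60) and lung against liver for Fat1 (1.27 and 0.93), the last also with RLE (0.0815, Dchs1 line). Correlations that turned were Fat4 with Fjx1 in Dchs1 heart (0.0696 on TPM, 0.143 in the longest stretch), kidney (0.179) and lung (0.309 and 0.396), Dchs1 with Fat4 in Dchs1 kidney (0.218 and 0.251), and in Fat4 kidney Dchs1 with Fjx1 (0.0523) and Fat4 with Fjx1 (0.0199).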
